A study of Mus musculus with 20 samples.

Results

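The P2Y and adenosine receptors are the G-protein-coupled receptors for extracellular nucleotides and for adenosine. The genes described here are 10 of them, taken by Ensembl identifier from the 37620 genes listed for the dataset. There are 6 P2Y receptors (P2ry1, P2ry2, P2ry6, P2ry12, P2ry13 and P2ry14) and 4 adenosine receptors (Adora1, Adora2a, Adora2b and Adora3). They were divided by the cells they are best known from into 3 neuronal members (P2ry1, P2ry2 and Adora1), 5 glial or immune members (P2ry6, P2ry12, P2ry13, P2ry14 and Adora3) and 2 members of mixed expression (Adora2a and Adora2b).

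ATP released from cells acts on ligand-gated P2X channels and on P2Y receptors, and enzymes on the cell surface break it down to ADP, AMP and then adenosine, the ligand of the Adora receptors. P2ry1, P2ry2 and P2ry6 couple mainly to Gq and phospholipase C, whereas P2ry12, P2ry13, P2ry14, Adora1 and Adora3 couple to Gi, and Adora2a and Adora2b to Gs. In sensory ganglia P2Y receptors are found on neurons and on the satellite glia around them, the Gi-coupled P2ry12 is a marker of microglia in the brain, and Adora1 dampens transmission from nociceptors.

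RNA was sequenced from Trpv1 neurons of dorsal root ganglia (DRG), which are mostly unmyelinated nociceptors. Lumbar (L4-5) and sacral (L6-S1) DRG came from untreated male and female mice aged 6 to 8 weeks, all homozygous for Trpv1tm2Bbm, the Trpv1 PLAP-nLacZ reporter. There were 4 groups of 5 libraries (male lumbar, male sacral, female lumbar and female sacral), 20 in all, and each of 10 donors (here M1 to M5 and F1 to F5) gave 1 lumbar and 1 sacral library. The ganglia were dissociated with enzymes, and the cells that most strongly cleaved a fluorescent galactosidase substrate were sorted, so that the sort rests on reporter activity from the Trpv1 locus. A donor is named by 2 animal numbers in the labels, though the methods count 5 male and 5 female mice, and pooling of cells is not stated.

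The deposited values are log2 RPKM (read counts scaled to gene length and library size, on a log2 scale), which can be compared between genes. A gene without reads in a library was left empty. Reads per gene were worked back from these values, and they came to between 43880739 and 66363345 per library. Log2 fold changes are lumbar minus sacral from limma with donor as a random block, so that negative values mean upregulation in sacral DRG, and a differentially expressed gene (DEG) had a Benjamini-Hochberg adjusted p of at most 0.05. All 6 markers of Trpv1 nociceptors and all 8 pan-neuronal markers had values in every library, but so did all 7 satellite glia markers. The mean log2 RPKM of the satellite glia markers ran from 5.10 to 6.55 in lumbar and from 4.22 to 5.38 in sacral libraries, and their summed RPKM had medians of 922 and 408. All 7 were DEGs upregulated in lumbar DRG, and all 8 pan-neuronal markers were DEGs upregulated in sacral DRG. In bulk libraries of this kind, fewer cells of a type and less RNA per cell cannot be told apart.

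The promoters of P2ry1, Adora1 and P2ry12 are shown because these genes changed between the levels and their windows differed in base composition. RefSeq promoters of GRCm38.p6 (300 bases around the first listed start, a different build from the mm9 of the expression values) were matched for 8 of the 10 genes. Capitals mark every GC box (GGGCGG or its reverse complement CCGCCC) and every GGAAGT or ACTTCC, a core bound by ETS-family factors. The P2ry1 window is chr3:61002535-61002834 on the plus strand, that of Adora1 is chr1:134235408-134235707 on the minus strand, and that of P2ry12 is chr3:59262936-59263235 on the minus strand.
P2ry1: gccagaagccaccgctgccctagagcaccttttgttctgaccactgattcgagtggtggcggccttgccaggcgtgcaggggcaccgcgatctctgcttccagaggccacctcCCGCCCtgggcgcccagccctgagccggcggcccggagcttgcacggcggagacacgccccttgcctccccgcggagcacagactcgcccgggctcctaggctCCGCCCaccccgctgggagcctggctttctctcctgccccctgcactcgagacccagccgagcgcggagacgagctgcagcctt
Adora1: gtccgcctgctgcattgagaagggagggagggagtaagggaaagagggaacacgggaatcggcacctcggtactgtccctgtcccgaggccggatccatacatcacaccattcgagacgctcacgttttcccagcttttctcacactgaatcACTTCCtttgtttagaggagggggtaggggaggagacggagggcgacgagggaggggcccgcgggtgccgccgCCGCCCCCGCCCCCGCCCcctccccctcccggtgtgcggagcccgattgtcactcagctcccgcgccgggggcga
P2ry12: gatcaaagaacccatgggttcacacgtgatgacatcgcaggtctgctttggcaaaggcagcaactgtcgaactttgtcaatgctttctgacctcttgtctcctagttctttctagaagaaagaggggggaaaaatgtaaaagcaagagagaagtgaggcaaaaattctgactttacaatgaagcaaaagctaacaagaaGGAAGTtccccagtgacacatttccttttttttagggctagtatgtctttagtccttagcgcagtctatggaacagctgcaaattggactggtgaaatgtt

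The P2ry1 window was 70.7% G and C with 2 GC boxes, and the Adora1 window was 66.0% with 3 GC boxes and 1 ETS core. The third neuronal member, P2ry2, had 67.3% and 4 GC boxes. By contrast, the P2ry12 window was 42.3% G and C, with no GC box and 1 ETS core. The median over 27025 promoters was 52.7%, and 15.5% of them had a lower G and C content than that of P2ry12. Of all promoters, 35.9% held a GC box and 24.1% the ETS core. The P2ry13 and P2ry14 windows (42.3% and 49.3%) held neither, Adora3 (48.3%) held 1 ETS core, and Adora2b (70.0%) held 6 GC boxes and 1 ETS core that overlaps a GC box. None of the 8 windows held TATAAA, found in 14.2% of promoters. These are descriptions of letters, and binding was not measured.

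Over the 20 libraries the members covered a wide range of levels. P2ry1 was the most abundant at a mean log2 RPKM of 4.16 ± 0.54 (SD, n = 20), and Adora1 followed at 3.54 ± 0.56. P2ry2, the receptor for ATP and UTP, had a mean of 1.56 ± 0.23, and P2ry12 one of 1.48 ± 0.75. Adora2b was at -0.45 ± 0.47 and Adora2a at -0.82 ± 1.05. The order was tested between neighbors over donors with an exact two-sided sign-flip permutation test, adjusted over the 8 pairs that could be tested (smallest unadjusted p possible with 10 donors, 0.00195). P2ry1 exceeded Adora1 by 0.62 ± 0.15 (SD over 10 donors, adjusted p = 0.0052, exact), and Adora1 exceeded P2ry2 by 1.97 ± 0.32 (adjusted p = 0.0052, exact). P2ry12 exceeded Adora2b by 1.94 ± 0.68 (adjusted p = 0.0052, exact). Averaged over both levels, P2ry2 and P2ry12 did not differ beyond their spread (0.08 ± 0.55, adjusted p = 0.69, exact), nor did Adora2b and Adora2a (0.37 ± 0.68, adjusted p = 0.16, exact). The averages hide differences within a level. P2ry2 minus P2ry12 was -0.49 in lumbar libraries (adjusted p = 0.042, exact) and 0.65 in sacral libraries (adjusted p = 0.041, exact), so their order turned and passed the test at each level. Adora2b exceeded Adora2a by 1.01 in lumbar libraries (adjusted p = 0.042, exact), and in sacral libraries it was at -0.27 relative to Adora2a (adjusted p = 0.27, exact).

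**Figure D1:**
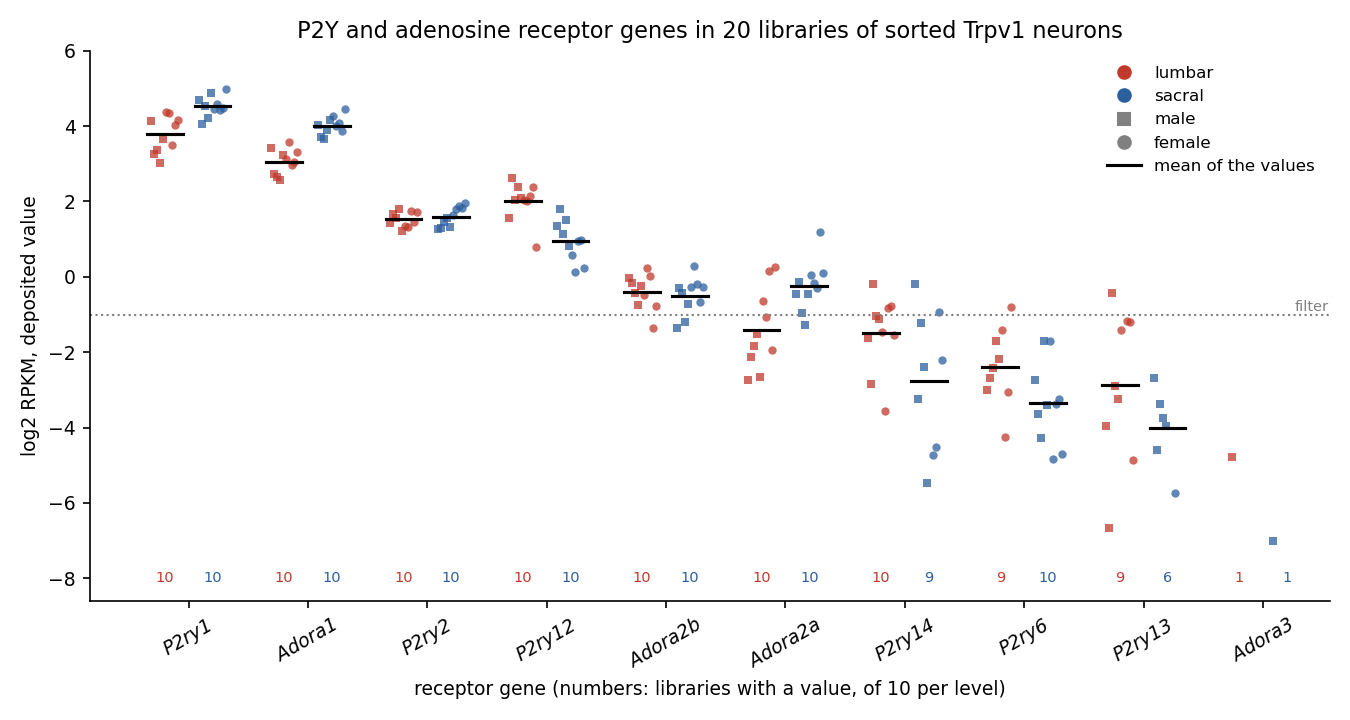
Deposited log2 RPKM of the 10 receptor genes, in order of their mean, with 1 point per library (red lumbar, blue sacral, squares male, circles female), and a black line for the mean of the values. Numbers along the bottom count libraries with a value, and the dotted line is the filter at -1. P2ry1 and Adora1 lie highest, and Adora3 has a value in 2 libraries.

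The 4 remaining members, all of the glial or immune division, were near the limit of detection. P2ry14, a receptor for UDP-glucose, had values in 19 libraries and at most 81 reads in any of them. P2ry6, the UDP receptor, had values in 19 libraries and at most 40 reads. P2ry13, an ADP receptor, was empty in 5 libraries and had at most 82 reads. Adora3 had 4 reads in 1 lumbar library and 1 read in 1 sacral library, both from males, and none in the other 18 libraries, where a count of 0 allows up to 3 reads. A second Ensembl gene is also named Adora3 and shares 105 exonic bases with the first, and it had 7 reads in 1 library. Averaged over both levels, the steps from Adora2a down to P2ry14 (1.21 ± 1.40), P2ry6 and P2ry13 did not pass the test (adjusted p from 0.055 to 0.22, exact). Adora2a above P2ry14 passed in sacral libraries alone (2.50, adjusted p = 0.023, exact), with a pseudocount of 0.1 RPKM (0.97, adjusted p = 0.042, exact) and without donor M1 or M3 (1.42 each, adjusted p = 0.031 and 0.025, exact). P2ry14 above P2ry6 passed in lumbar libraries alone (0.90, adjusted p = 0.042, exact) and without M5 (1.03, adjusted p = 0.031, exact), and P2ry6 above P2ry13 without M3 (0.86, adjusted p = 0.025, exact).

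Between the levels 6 of the 10 members passed the filter on low values (a mean log2 RPKM above -1 in at least 1 group), and 4 were DEGs. P2ry1, Adora1 and Adora2a were upregulated in sacral DRG, P2ry12 was upregulated in lumbar DRG, and P2ry2 and Adora2b were not DEGs. Of all 16304 genes tested, 45.7% were DEGs, 30.4% with upregulation in sacral and 15.3% in lumbar DRG, so that a DEG by itself was common in these libraries. The median log2 fold change of all tested genes was -0.11, and that of the 6 members was -0.41.

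Adora1 (ENSMUSG00000042429), a Gi-coupled adenosine receptor, lies on chromosome 1 of mm9 (136095800 to 136132008, minus strand). Its lowest, median and highest log2 RPKM were 2.57, 3.09 and 3.57 in lumbar libraries and 3.65, 4.02 and 4.45 in sacral libraries. Every sacral library was above every lumbar library, but the share of all genes that separated in this way was not counted. The differences within donors ran from -1.34 (M4) to -0.45 (F2). This gave a fold change of -0.95 on the log2 scale (SE 0.10, limma adjusted p = 1.4e-06), which is 1.93-fold. Adora1 shares 661 of its exonic bases (11.4%) with Mybph, a myosin-binding protein gene on the opposite strand, and the library kit does not mark strand. Mybph had 227 to 1572 reads, at most 21.6% of those of Adora1 in the same library, and it changed by -0.99 (limma adjusted p = 3.4e-05). Reads from the shared bases cannot be told apart.

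P2ry1 (ENSMUSG00000027765), the Gq-coupled ADP receptor, lies on chromosome 3 of mm9 (60806717 to 60812901, plus strand) and overlaps no other annotated gene. Its lowest, median and highest log2 RPKM were 3.02, 3.84 and 4.37 in lumbar and 4.06, 4.51 and 4.99 in sacral libraries. The ranges overlapped between 4.06 and 4.37, and 8 of 10 sacral libraries were above all lumbar ones. The change was -0.75 on the log2 scale (SE 0.13, 95% interval -1.01 to -0.48, limma adjusted p = 9.1e-05), and 10 of 10 donors went this way. The difference was -0.08 in female donor F1 and -0.23 in F2, and reached -1.20 in male donor M5. In males it averaged -0.98 and in females -0.51, and the sex by level interaction was not significant (-0.47, limma adjusted p = 0.9996, unadjusted 0.074).

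P2ry2 (ENSMUSG00000032860, chromosome 7, 108145086 to 108160505, minus strand) was the neuronal member without a level difference that passed the test. Its lowest, median and highest log2 RPKM were 1.21, 1.51 and 1.79 in lumbar and 1.28, 1.59 and 1.95 in sacral libraries, from 261 to 780 reads. The ranges overlapped almost throughout, and the log2 fold change was -0.07 with a 95% interval from -0.25 to 0.10 (adjusted p = 0.50 from limma). All 5 females had a higher sacral level (differences of -0.47 to -0.14), and 4 of 5 males a higher lumbar level (up to 0.35). The interaction of sex and level was 0.44 (standard error 0.17) and did not pass the adjustment (limma adjusted p = 0.9996, unadjusted 0.019). P2ry2 was a DEG at -0.39 when voom was run on reads scaled by library totals, a scaling that moved the median of all genes to -0.43.

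**Figure D2:**
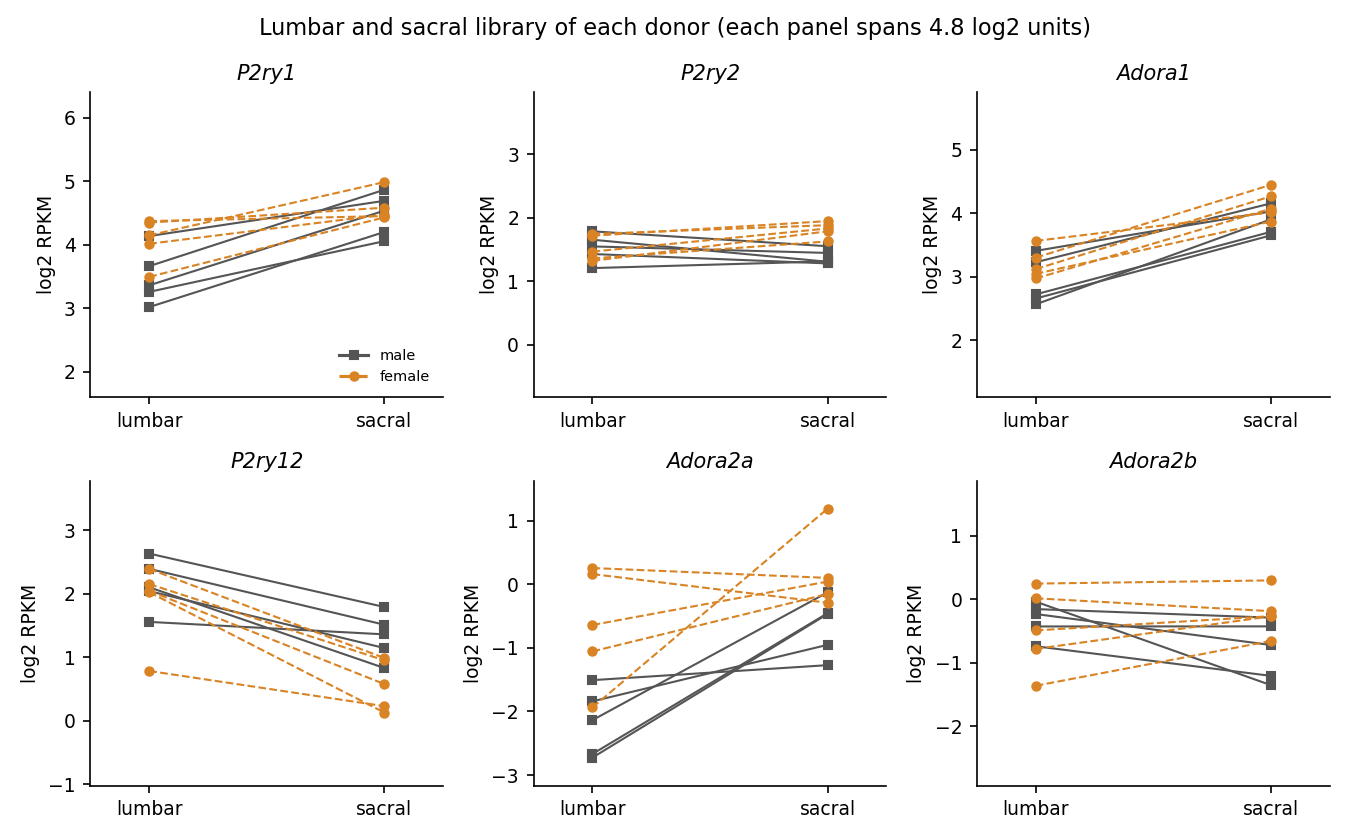
Log2 RPKM of the 6 tested receptor genes in the lumbar and sacral library of each donor, joined by a line (grey squares male, orange circles female). All 10 lines rise toward sacral for Adora1 and P2ry1 and fall for P2ry12, while those of P2ry2 and Adora2b run in both directions.

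P2ry12 (ENSMUSG00000036353), the Gi-coupled ADP receptor, lies on chromosome 3 (59020193 to 59066753, minus strand) next to P2ry13 (59011818 to 59014804) and near P2ry14 (58918548 to 58934546). All 3 lie within Med12l on the opposite strand and share no exonic base with it. P2ry12 had a lowest, median and highest log2 RPKM of 0.78, 2.07 and 2.63 in lumbar and of 0.13, 0.97 and 1.79 in sacral libraries, from 153 to 588 reads. In 8 lumbar libraries it was above every sacral one, and the differences within the 10 donors were all positive, from 0.20 (M1) to 1.89 (F2). The change was 1.06 on the log2 scale (SE 0.17, limma adjusted p = 5.6e-05), a 2.08-fold difference. The lowest lumbar library was that of F5 at 0.78, against 1.56 for the next.

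The other glial or immune members were below the filter. Of the donors with both values, P2ry14 was higher in lumbar DRG in 8 of 9, P2ry6 in 7 of 9 and P2ry13 in 4 of 6. Reads of P2ry14 had a median of 33.5 in lumbar and 16.5 in sacral libraries, and those of P2ry6 medians of 14 and 9.5. P2ry13 had a median of 13 lumbar and 4.5 sacral reads, and 4 of the 5 female sacral libraries had none. Without the filter limma gave 1.30 for P2ry14 (SE 0.58, adjusted p = 0.081) and 0.95 for P2ry6 (SE 0.45, adjusted p = 0.10), so neither was a DEG. P2ry13 and Adora3 were not tested in that fit.

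Adora2a (ENSMUSG00000020178, chromosome 10, 74779688 to 74797533, plus strand), a Gs-coupled adenosine receptor, had the lowest mean level of the tested members and the widest spread. Its lowest, median and highest log2 RPKM were -2.73, -1.67 and 0.26 in lumbar and -1.27, -0.22 and 1.19 in sacral libraries, from 15 to 175 lumbar and 65 to 282 sacral reads. The groups overlapped, and the sacral level was the higher one in 8 of 10 donors, the exceptions being females F3 (0.45) and F5 (0.16). The change was -1.17 (SE 0.28, limma adjusted p = 0.0021). The male donors ranged from -2.26 to -0.24 and the female donors from -3.13 to 0.45, and in females alone it was not a DEG (-0.82, limma adjusted p = 0.17). With a pseudocount of 1 RPKM it was a DEG at -0.39.

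Adora2b (ENSMUSG00000018500, chromosome 11, 62062486 to 62079955, plus strand), the adenosine receptor of lower affinity, had a median log2 RPKM of -0.33 in lumbar and -0.36 in sacral libraries. Its ranges (-1.36 to 0.24 and -1.35 to 0.29) overlapped almost entirely, and 5 donors differed in each direction. The log2 fold change was 0.11, with a 95% interval from -0.30 to 0.52 (adjusted p = 0.67 from limma).

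Relative to the median of all tested genes, the log2 fold changes were -0.84 for Adora1, -0.64 for P2ry1, -1.06 for Adora2a and 1.17 for P2ry12. For P2ry2 the value was 0.04 and for Adora2b 0.22. The 4 DEGs kept their directions and remained DEGs under quantile normalization and with voom on the recovered reads, scaled either by TMM or by total reads. These scalings changed the share of all DEGs that were upregulated in sacral DRG, which was 66.5% with the deposited values, 53.0% with quantile normalization, 50.3% with TMM and 87.1% with total reads. One setting ended all 4 calls. With the satellite glia marker mean as a covariate, Adora1 was at -0.61, P2ry1 at -0.14, Adora2a at -0.63 and P2ry12 at -0.18, each with an adjusted p of 0.46 or more from limma. In that fit 5 of the 16304 genes were DEGs, and the standard errors of these 4 genes were between 0.23 and 0.64.

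**Figure D3:**
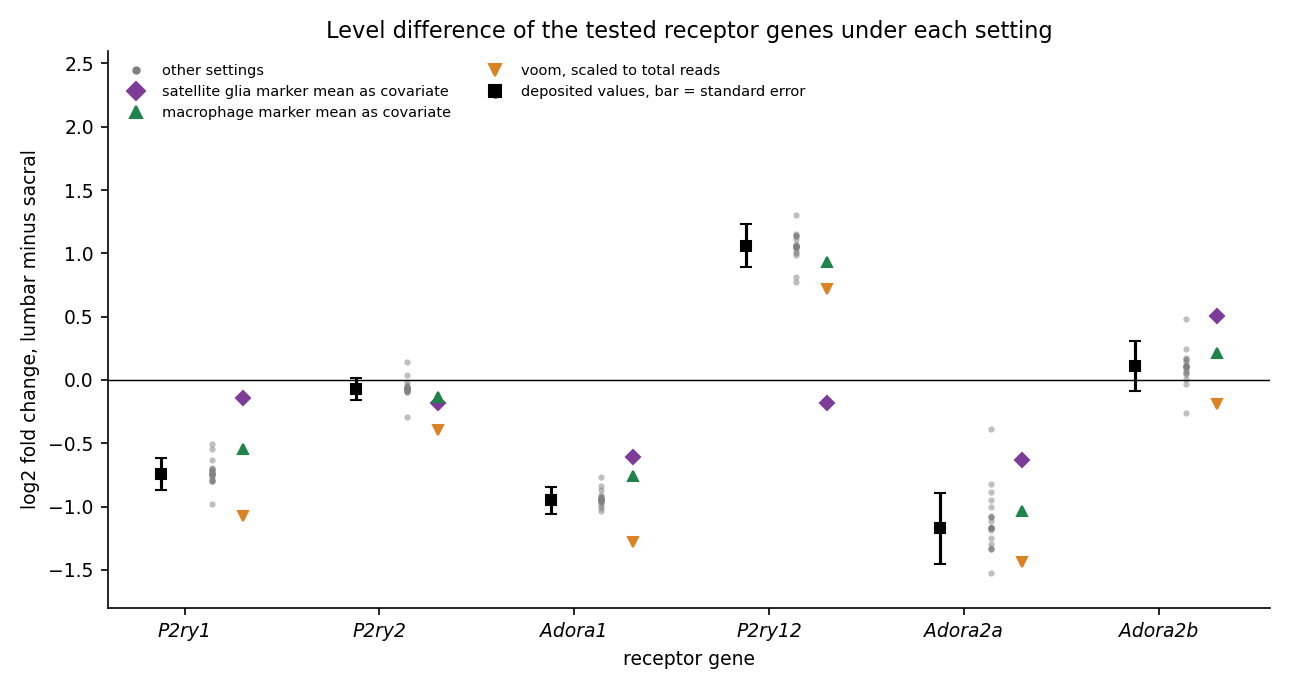
Log2 fold change (lumbar minus sacral) of the 6 tested receptor genes. Black squares with standard errors come from the deposited values, grey dots from other settings, and colored symbols from the marker covariates and total-read scaling. P2ry12 is the DEG whose estimate changes sign with the satellite glia covariate, to -0.18 (SE 0.26, limma adjusted p = 0.91).

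A scaling factor for a library adds the same amount to all its genes on the log2 scale, so it cancels when the level differences of 2 members are set against each other. The 15 pairs of the 6 tested members were compared within donors by an exact two-sided sign-flip permutation test, and 11 passed an adjusted p of 0.05. P2ry12 differed from each of the other 5 members. The ratio of Adora1 to P2ry12 was lower in lumbar than in sacral DRG by 2.01 ± 0.50 log2 units (SD, n = 10 donors, adjusted p = 0.0059, exact), and that of P2ry1 to P2ry12 by 1.81 ± 0.49 (adjusted p = 0.0059, exact), in 10 of 10 donors each. As given above, Adora1 and P2ry1 were higher in sacral DRG and P2ry12 in lumbar DRG in all 10 donors. The p-values of these 2 comparisons follow from those signs and are no separate evidence. All 15 pairs were compared after the fits had been seen. The neuronal members were not alike either, as P2ry2 exceeded Adora1 in its difference by 0.88 ± 0.44 (9 of 10 donors, adjusted p = 0.0098, exact). P2ry1 and Adora1 were not distinguished (0.21 ± 0.36, adjusted p = 0.095, exact), nor were Adora1 and Adora2a (0.22 ± 1.33, adjusted p = 0.62, exact).

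The level differences were then set beside those of marker lists in the same libraries. The mean of the 8 pan-neuronal markers (such as Tubb3, Uchl1 and Elavl4) differed by -0.56 ± 0.25 (SD, n = 10 donors), with all donors higher in sacral DRG. The mean of the 7 satellite glia markers (such as Fabp7 and Sox10) differed by 1.12 ± 0.35, with all donors higher in lumbar DRG. Of 12 macrophage markers, 7 had a value in every library, and their mean differed by 1.03 ± 0.92, with 9 donors higher in lumbar DRG. The summed RPKM of the 12 was 4.22 to 26.5 in lumbar and 3.03 to 6.98 in sacral libraries. Of 8 tested 5 were DEGs (Csf1r, C1qc, Tyrobp, Mrc1 and Laptm5), all upregulated in lumbar DRG. Their mean log2 RPKM was -0.64 to 0.31 in lumbar and -2.74 to -1.19 in sacral libraries. By these means they lay above the filter of -1 in lumbar libraries alone, so the filter favored their lumbar direction. C1qb and Cd68, above -1 at both levels, were at 0.90 and 0.47 and were not DEGs (limma adjusted p = 0.0502 and 0.195). Myelinating Schwann cell and endothelial marker means were also higher in lumbar DRG in 10 of 10 donors, by 0.73 ± 0.30 and 0.96 ± 0.42. Of 4 tested neutrophil markers, 3 were DEGs upregulated in sacral DRG (-4.20 for Ngp, -2.23 for S100a9 and -2.09 for S100a8). Those 3 had values in 11 to 13 of the 20 libraries, and in both libraries of only 3 or 4 donors. Camp was at 0.46 (limma adjusted p = 0.74). The summed RPKM of the neutrophil list had a median of 2.64 in lumbar and 2.41 in sacral libraries.

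Adora1 differed by more than the mean of the pan-neuronal markers, by -0.39 ± 0.26 relative to them (9 of 10 donors, adjusted p = 0.0070, exact sign-flip test adjusted over 18 comparisons). Single neuronal genes changed as much, with log2 fold changes of -0.98 for the pan-neuronal marker Syt1 and of -0.96 and -0.94 for the nociceptor markers Trpv1 and Scn10a. The mean of the 6 Trpv1 nociceptor markers differed by -0.53 ± 0.26, with 10 of 10 donors higher in sacral DRG. The members were not tested against that mean. Of the 6 markers, 4 were DEGs, all upregulated in sacral DRG. Calca was at 0.16, with 8 donors higher in lumbar DRG, and Tac1 was at -0.10, and neither was a DEG. P2ry1 was not distinguished from the pan-neuronal mean (-0.18 ± 0.29, adjusted p = 0.10, exact), nor was Adora2a (-0.61 ± 1.19, adjusted p = 0.16, exact). P2ry2 and Adora2b lay above the pan-neuronal markers, by 0.49 ± 0.43 (adjusted p = 0.015, exact) and 0.68 ± 0.64 (adjusted p = 0.016, exact). P2ry12 lay above them by 1.62 ± 0.56 in 10 of 10 donors (adjusted p = 0.0039, exact), an outcome fixed by their opposite signs in every donor. P2ry12 was not distinguished from the satellite glia markers (-0.07 ± 0.42, adjusted p = 0.68, exact) or from the macrophage markers (0.03 ± 1.08, adjusted p = 0.95, exact). The part of these marker levels in the receptor differences was not tested.

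**Figure D4:**
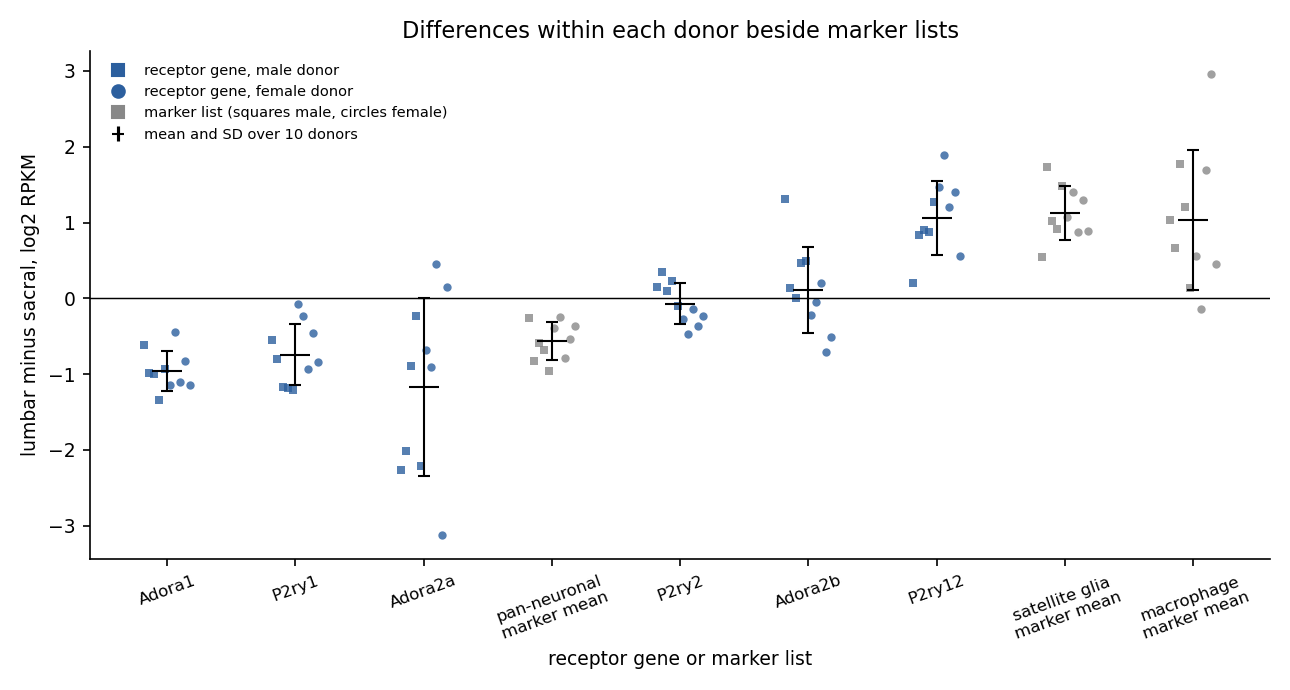
Lumbar minus sacral difference in log2 RPKM within each donor, for 6 receptor genes (blue) and 3 marker list means (grey), squares male and circles female, with mean and SD over 10 donors. The mean of P2ry12 lies on the lumbar side, as do those of the satellite glia and macrophage markers. Adora1 and P2ry1 lie on the sacral side with the pan-neuronal markers.

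Across donors, 18 relations between the difference of a member and that of the pan-neuronal, satellite glia or macrophage list were examined, and none passed the adjustment (lowest adjusted p = 0.52, permutation test). The strongest was P2ry1 with the pan-neuronal list, with a Pearson r of 0.69 (unadjusted permutation p = 0.029) and a Spearman rho of 0.68 (p = 0.035, permutation) over 10 donors. Without the 2 donors farthest from the median of the list (M5 and F2) r was 0.52. P2ry12 with the satellite glia list had an r of 0.55 (permutation p = 0.095, adjusted 0.86) and a rho of 0.49 (p = 0.16, permutation). For the satellite glia list the 2 donors farthest from its median were M1 and M2. Without them r was 0.70 for P2ry12, 0.76 for Adora1 (0.16 with all donors) and -0.78 for Adora2a (-0.40 with all donors).

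Female and male donors were compared within each level to ask whether sex bears on these receptors. No member was a DEG, against 0.0427% of all genes tested in lumbar and 0.0368% in sacral DRG, and none had a sex by level interaction, against 0% of all genes. In lumbar DRG the largest difference was for Adora2a, with log2 RPKM of -2.73 to -1.51 in males and -1.94 to 0.26 in females (female minus male 1.53, standard error 0.44, adjusted p = 0.26 from limma, unadjusted 0.0022). P2ry1 had a lumbar difference of 0.59 (adjusted p = 0.33). In sacral DRG P2ry12 was at -0.75 (adjusted p = 0.50) and P2ry2 at 0.44 (adjusted p = 0.38). For sacral P2ry2, the 5 female libraries (1.63 to 1.95) were all above the 5 male ones (1.28 to 1.55), though the difference did not pass the adjustment. How many of all genes separated the sexes this fully was not counted.

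Over all 20 libraries, Kcnd3, a voltage-gated potassium channel gene, had the pattern most like that of P2ry1 (Pearson r = 0.97), followed by Rasgrp1 and Magi3 (0.95 each). For Adora1 these were Mgat4a (0.97), Golga2 (0.95) and the synaptic vesicle gene Syp (0.94). For P2ry12 they were Dock1 (0.96), Cyp2j9 (0.95) and Gulp1 (0.95), and the first and the last encode proteins of engulfment. The patterns nearest to the others were less close, with Odf2l, Thbs1 and Gas6 for P2ry2 (0.72, 0.72 and 0.71), Gm13669, Hpcal4 and Gm11633 for Adora2a (0.85, 0.81 and 0.81), and 2210411M09Rik, Zfp574 and Gm11226 for Adora2b (0.70, 0.70 and 0.68). Among the members P2ry1 and Adora1 had an r of 0.90, and both ran against P2ry12 (-0.78 and -0.84). These libraries share the level difference and the scaling, so the values describe likeness alone.

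Genes that make, break down or transmit the signals of these receptors were taken from 8 lists with 54 genes. Of 43 tested, 32 were DEGs (74.4%, against 45.7% of all genes). Of these, 24 were upregulated in sacral DRG and 8 were upregulated in lumbar DRG, and the median change of the 43 was -0.36. These counts are 55.8% and 18.6% of the 43, against 30.4% and 15.3% of all genes. The shorter lists below stand against the same shares of all genes. The sacral and lumbar counts of the 43 were 19 and 7 with quantile normalization, 20 and 8 with TMM, and 34 and 6 with total reads. Those of all genes also moved, from 4950 and 2499 with the deposited values to 3443 and 3048 with quantile normalization. They were 3504 and 3468 with TMM and 9454 and 1405 with total reads. With the satellite glia covariate none of the 43 was a DEG, against 5 of all 16304 genes. With the macrophage covariate 17 were, against 3658 of all 16304 genes.

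Among the routes of nucleotide release all 5 tested genes were DEGs with the deposited values, 3 with quantile normalization, and 4 with TMM and with total reads. Panx1, the pannexin channel, changed by -0.90 (SE 0.10, limma adjusted p = 1.3e-06), and Panx2 and Lrrc8a were also upregulated in sacral DRG. Gja1, the connexin 43 gene, which is known from glia, was upregulated in lumbar DRG (0.70, SE 0.13, adjusted p = 1.8e-04), as was Calhm2. The vesicular nucleotide transporter gene Slc17a9 had a value in 6 libraries.

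Ectonucleotidase genes also changed in both directions. Entpd3 (-0.76, adjusted p = 1.4e-04 from limma) and Acpp (-0.69, adjusted p = 3.0e-04), the acid phosphatase that makes adenosine in nociceptors, were upregulated in sacral DRG. Enpp1 (1.21, adjusted p = 1.9e-06), Entpd1 (1.04, adjusted p = 3.1e-05), Entpd2 and Alpl were upregulated in lumbar DRG. Nt5e, which encodes the ecto-5'-nucleotidase CD73, was at -0.36 (adjusted p = 0.095) and was not a DEG. Of 6 tested genes of adenosine handling 3 were DEGs, near the share of 45.7% among all genes, and all 3 were upregulated in sacral DRG. These were the transporters Slc29a4 (-0.85, limma adjusted p = 3.8e-05) and Slc29a2 and the kinase Adk. The count of DEGs was 2 with quantile normalization and with TMM, and 6 with total reads.

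**Figure D5:**
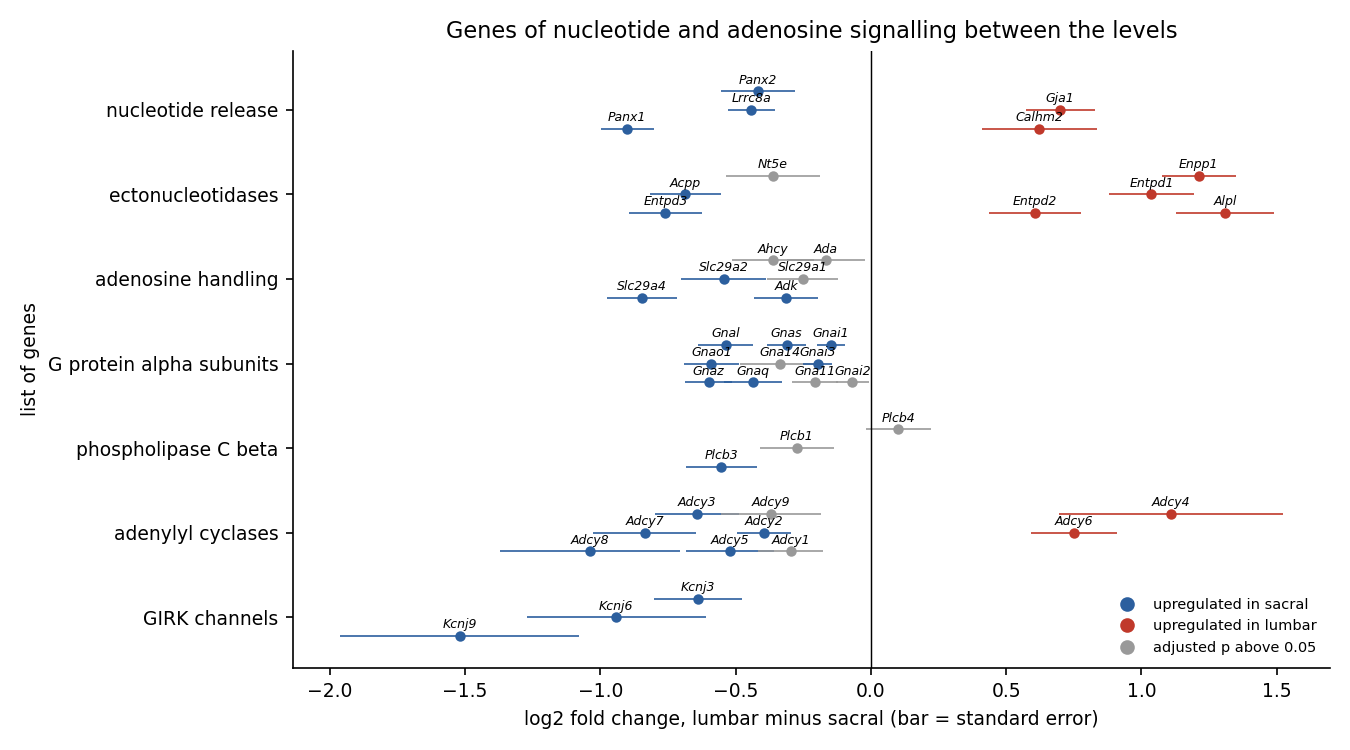
Log2 fold change (lumbar minus sacral) with standard error of the 43 tested genes of 7 lists of nucleotide and adenosine signaling. Blue genes were upregulated in sacral and red genes in lumbar DRG, and grey genes were not DEGs. The red points belong to nucleotide release, ectonucleotidases and adenylyl cyclases.

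Downstream of the receptors, 7 of 10 tested G protein alpha subunits were DEGs, all upregulated in sacral DRG, among them Gnao1, Gnaz and Gnaq. Their changes were from -0.60 to -0.15. The count rested on the scaling, as quantile normalization gave 3 sacral and 1 lumbar DEGs, TMM 5 and 0, and total reads 10 and 0. The median of the list was negative under each of these scalings, at -0.32, -0.08, -0.21 and -0.65 in the order deposited, quantile, TMM and total reads. Of 3 phospholipase C beta genes Plcb3 was a DEG (-0.55, adjusted p = 0.0018 from limma). Of 9 adenylyl cyclases 5 were upregulated in sacral DRG, while Adcy4 (1.11, adjusted p = 0.033) and Adcy6 (0.75, adjusted p = 6.9e-04) were upregulated in lumbar DRG. Adcy4 was no DEG with quantile normalization (0.90, adjusted p = 0.080 from limma) or without the donor block (adjusted p = 0.062), and neither was a DEG with the macrophage covariate (adjusted p = 0.22 for Adcy4 and 0.094 for Adcy6). All 3 tested GIRK channels, which Gi-coupled receptors open, were upregulated in sacral DRG, at -0.64 (Kcnj3), -0.94 (Kcnj6) and -1.52 (Kcnj9). With the macrophage covariate 1 of the 3 was a DEG. Mean log2 RPKM was -1.75 in lumbar and -0.81 in sacral libraries for Kcnj6, and -2.47 and -0.95 for Kcnj9. By these means both lay above the filter of -1 in sacral libraries alone, so the filter favored their sacral direction. Kcnj6 had at most 407 reads and Kcnj9 at most 195, and each was higher in sacral DRG in 8 of 10 donors. The receptors P2ry4, P2ry10 and Gpr17, the remainder of the P2Y-like group, were all below the filter, with values in 5, 6 and 20 libraries.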

How the data were processed

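RNA was measured in 20 libraries, placed in groups by their labels. According to the methods, Subread placed reads on mm9 (Ensembl 67), those mapping to a single position were counted by gene with featureCounts, followed by voom in limma after the authors' TMM step with edgeR. In the table, which the authors deposited as log2 RPKM, each library has a median of 0.93, and genes without reads are empty. Whether counting used the strand is not given in the sources used here. Equal medians make every log2 fold change relative to the middle of the expressed genes. Gene lengths of NCBIM37 (the same build as mm9) matched 37205 of 37620 genes. With these lengths the values give whole reads (98.3% of 228127 values under 300 reads, within 0.01 of a read), and those of the 10 receptor genes were all whole. Depth speaks to counting error alone.

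Levels and sexes were compared with limma 3.58.1 (statmod 1.5.0, R 4.3.3) on the deposited values, with 4 group means, donor as a random block (correlation 0.17), variances moderated along a mean trend, and p adjusted by Benjamini-Hochberg over all genes tested. A gene entered if any group with 3 or more values averaged over -1. The pairing comes from the animal numbers that the libraries of a donor share. Deviations from group means correlated at 0.18 on average between libraries of a donor (lowest 0.039) and at -0.04 between donors of a sex. The limma p-values rest on the spread of the libraries of these 10 donors around their group means. They use 1 donor correlation for all genes and variances moderated across genes (21.4 degrees of freedom for the level difference). With donor as a fixed block the adjusted p of Adora2a was 0.013 from limma. Fits were tested on simulated data in which few genes changed, in random directions. In these data 45.7% of genes were DEGs, mostly upregulated in sacral DRG, and the simulation does not cover that case. Order, pairs of genes and marker comparisons used exact sign-flip tests over donors, and correlations used 100000 permutations (Python 3.11.15, numpy 2.4.6, scipy 1.17.1, pandas 2.3.3, matplotlib 3.10.9). The comparisons of members with each other and of members with marker lists were added to the plan after the fits had been seen. The members, marker lists and pathway lists were chosen with earlier results of these data known. One gene of the planned satellite glia list is not reported here, and that list was used without it. Named pathway genes are the 5 with the largest change in each direction among DEGs that went the same way in all 10 donors, and others are named to account for a list. Genes of like pattern are the 3 with the highest Pearson r for each member among 15259 or 15258 genes. Alternatives were 15 other settings of the fit and each of the 10 donors left out. Amino acid sequences were not used here.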

Additional observations from a re-analysis of the deposited data

Results flagged for a closer look

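For each member, the values of each group of 4 or 5 libraries and the differences of the donors were checked for 1 value far from the others, which chance gives in about 1 in 20 groups. Of 44 groups checked, 5 held such a value, all of them from female donors.

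Donor F5 gave 3 of these. In female sacral libraries, P2ry1 was highest in F5 at a log2 RPKM of 4.99, against 4.43 to 4.58 in the others. In female lumbar libraries P2ry12 was lowest in F5 at 0.78, against 2.02 to 2.39. P2ry13 was lowest in the same lumbar library at -4.87 (5 reads), and the next was at -1.42. Without F5, P2ry1, Adora1, Adora2a and P2ry12 all remained DEGs.

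P2ry14 was lowest of the female lumbar libraries in F2, at -3.56 (9 reads), against -1.53 for the next. Adora2a was highest of the female sacral libraries in F4, at 1.19 (282 reads), against 0.10 for the next.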

How the results depend on the processing

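Over the 25 alternatives of the level fit, Adora1, P2ry1 and P2ry12 were DEGs in 24 and Adora2a in 22, and Adora2b was a DEG in none of 24. With any donor left out all 4 DEGs kept their direction and their call, at -1.01 to -0.91 for Adora1, -0.80 to -0.69 for P2ry1, -1.33 to -0.88 for Adora2a and 0.99 to 1.15 for P2ry12. Without the donor block the values for these members were the same and all 4 were still DEGs, while 6591 of all genes were (7253 with donor as a fixed block). With the satellite glia marker mean as a covariate 5 genes were DEGs in all, with 0 members upregulated in sacral and 0 in lumbar DRG. In that fit P2ry12 was at -0.18, smaller than its standard error of 0.26 (limma adjusted p = 0.91), so no reversal was shown. P2ry1 was at -0.14, Adora1 at -0.61 and Adora2a at -0.63. That mean was higher in lumbar DRG in all 10 donors, and the cause of the lost calls was not tested. With the macrophage covariate 3658 genes were DEGs, and Adora2a, at -1.04, was not (adjusted p = 0.058 from limma). The fits of a single sex used fewer libraries. They gave 4648 DEGs in males alone and 3672 in females alone, where Adora2a was at -0.82 and was no DEG. P2ry2 became a DEG at -0.39 with voom and total-read scaling, under which 10859 genes were DEGs. No member had a sex difference or an interaction in any alternative. In lumbar libraries alone P2ry2 was below P2ry12 (-0.49), and in sacral libraries alone it was above it (0.65), and both passed the test. P2ry6, P2ry13, P2ry14 and Adora3 had at most 82 reads in any library.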
